A study of Mus musculus with 10 samples.

Results

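The regions examined are the accessible elements around 10 genes for transcription factors of mesodermal and fibroblast tissue: Nr2f1, Nr2f2, Meis1, Meis2, Tbx15, Tbx18, Osr1, Osr2, Foxf1 and Foxd1. They were chosen by position alone, as all peaks from 100 kb before to 100 kb after each gene in mm10. The peak lists of 10 libraries were merged into 208851 regions, and 279 of them lay in the 10 windows, which span 2533 kb together. An element here is one such merged region, and a library has the element if one of its peaks overlaps it by at least 1 bp.

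ATAC-seq, in which the transposase Tn5 cuts open DNA and inserts sequencing adapters, was applied to mouse cells at 5 stages on the way from fibroblasts to pluripotency, with 2 libraries each. MEF are embryonic fibroblasts of genotype OKSM Col1a1/M2rtTA ROSA26 (strain C57BL/6 x 129) in MEF medium without doxycycline, unsorted. The OKSM cassette holds Oct4, Klf4, Sox2 and Myc, which reprogram somatic cells, and M2rtTA is the activator that drives it under doxycycline. DAY3, DAY6 and DAY9 are the same cells after 3, 6 and 9 days in ESC medium with 1 ug/ml doxycycline and 50 ug/ml ascorbic acid, unsorted at DAY3 and sorted by the surface marker SSEA1 at DAY6 and DAY9. ESC is the embryonic stem cell line V6.5 (C57BL/6 x 129), which lacks the cassette and was grown unsorted on irradiated feeder cells in ESC medium with LIF. The sort therefore cannot be told apart from the 2 later days, nor the lack of the cassette from ESC, and the labels do not say from how many animals or cultures the libraries came.

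Nr2f1 and Nr2f2 are orphan nuclear receptors, known in mesenchyme, vessels and neural tissue. Meis1 and Meis2 are homeodomain proteins that act with Pbx and Hox factors. Tbx15 and Tbx18 are T-box factors of limb, skin and body wall mesenchyme, Osr1 and Osr2 are zinc finger factors of intermediate mesoderm, limb and palate, and Foxf1 and Foxd1 are forkhead factors of visceral mesoderm and of kidney stroma. Genes of this kind often have enhancers far from the promoter, inside neighbouring genes or in wide intergenic stretches, and a promoter rich in CG can remain accessible where the gene is silent.

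The lists held 45497 to 88980 peaks, fewest at DAY3 and most in ESC, and the commonest background pileup recovered from the authors' values, a measure of relative depth, ranged from 2.33 (DAY6 replicate 2) to 8.32 (MEF replicate 2). At that background a peak needed a fold of at least 2.57 in MEF replicate 2 and 3.61 in DAY6 replicate 2 to be listed, so the absence of a peak has a different limit in each library. The replicates of DAY3 and of DAY9 differed by little more than counting noise (noise ratio 1.33 and 1.42, where 1 is chance alone, against 3.61 to 8.11 at the other stages). DAY3 and DAY9 thus entered the tests as the mean of their 2 libraries, without a replicate error, and 8 samples remained over all 5 stages. Peaks within 1 kb of the start (or of either gene end where no strand is known), in both libraries, marked 6 of 8 fibroblast genes in MEF and 2 to 3 of 8 at the later stages, with Col3a1 and Postn marked in MEF alone. Lum, a matrix protein of fibroblasts, had no such peak in any library. Of 8 pluripotency genes 0 were marked in MEF, 1 at DAY3, then 6, 7 and finally 8 in ESC. Epithelial genes were marked in 0, 2, 5, 4 and 5 of 5, endothelial genes in 0, 2, 2, 2 and 2 of 4, blood and macrophage genes in 1, 2, 1, 2 and 2 of 4, and neural genes in 2, 2, 2, 3 and 2 of 3, in the order of the stages. The part of cell mixture in the results was not tested.

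Promoter sequences of 6 of the 10 genes, from RefSeq (GRCm38.p6, the assembly of mm10), give the setting of the elements at the starts. Shown are 3 promoters that a peak overlapped in 10 of 10 libraries and that of the only listed Nr2f2 start, which a peak overlapped in none. Each runs 5′ to 3′ from 250 bases before to 50 after the start, and capitals mark the Meis motif TGACAG. They lie at chr11:19018920-19019219 (minus strand, Meis1), chr9:87731211-87731510 (minus strand, Tbx18), chr13:98353995-98354294 (plus strand, Foxd1) and chr7:70366697-70366996 (minus strand, Nr2f2).

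Meis1: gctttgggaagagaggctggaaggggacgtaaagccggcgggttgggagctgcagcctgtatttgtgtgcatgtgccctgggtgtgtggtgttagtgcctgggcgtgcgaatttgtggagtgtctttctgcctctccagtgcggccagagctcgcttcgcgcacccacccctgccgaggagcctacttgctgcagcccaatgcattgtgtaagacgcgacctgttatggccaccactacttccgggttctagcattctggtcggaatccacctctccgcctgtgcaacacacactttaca
Tbx18: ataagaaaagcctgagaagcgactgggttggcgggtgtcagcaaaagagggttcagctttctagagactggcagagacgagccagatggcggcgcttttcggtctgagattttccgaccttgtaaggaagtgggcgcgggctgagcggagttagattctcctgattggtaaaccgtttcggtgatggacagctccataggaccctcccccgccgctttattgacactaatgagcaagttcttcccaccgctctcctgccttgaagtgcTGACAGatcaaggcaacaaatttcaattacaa
Foxd1: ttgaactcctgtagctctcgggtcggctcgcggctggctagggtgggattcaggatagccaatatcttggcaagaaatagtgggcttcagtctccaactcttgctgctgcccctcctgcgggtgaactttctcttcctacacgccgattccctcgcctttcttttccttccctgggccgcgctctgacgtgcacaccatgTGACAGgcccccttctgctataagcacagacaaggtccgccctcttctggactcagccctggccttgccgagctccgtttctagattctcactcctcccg
Nr2f2: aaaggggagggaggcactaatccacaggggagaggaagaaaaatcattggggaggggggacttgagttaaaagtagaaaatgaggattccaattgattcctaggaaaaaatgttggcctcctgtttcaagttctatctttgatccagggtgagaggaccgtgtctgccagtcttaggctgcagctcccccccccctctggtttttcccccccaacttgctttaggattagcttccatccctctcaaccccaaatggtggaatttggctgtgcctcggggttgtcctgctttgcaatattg

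The promoters of Meis1, Tbx18 and Foxd1 each held 15 CG dinucleotides, against 2 in that of Nr2f2 and a median of 7 over 32851 RefSeq promoters, of which 34.6% had at least 15. The outer of the 2 listed Nr2f1 starts held 23 and was overlapped in 5 of 10 libraries, and its inner start, with 4, in 0. The listed Meis2 start held 13 and had no peak over it. Its nearest peak, at chr2:116065473-116066600 and 1.4 kb before the start, was present in all 10 libraries. So was an element inside Nr2f2, 5.0 kb after the listed start of that gene (chr7:70361231-70362322). Motifs were searched on both strands: nuclear receptor AGGTCA, Meis TGACAG, T-box AGGTGTGA and AGGTGT (the shorter contained in the longer), forkhead TGTTTAC, AP-1 TGANTCA, Tead GGAATG, Oct ATGCAAAT, Klf GGGNGTGG and Sox ACAAAG. The Meis motif occurred in the promoters of Tbx18 and Foxd1 and in 19.2% of all promoters. A Klf motif was found at the outer Nr2f1 start (17.6% of all promoters), and overlapping forkhead (3.65%) and Sox (18.7%) motifs at the inner one. The promoters of Meis1, Meis2 and Nr2f2 held none of these letters.

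To describe the elements by stage, each was placed in 1 class by the libraries that listed it. Fibroblast elements, with a peak in both MEF libraries, numbered 72 of 279 (25.8%). Another 47 (16.8%) had peaks in both ESC libraries and in no MEF library, and 33 (11.8%) were transient: both libraries of at least 1 stage from DAY3 to DAY9 listed them, and no MEF or ESC library did. A further 91 (32.6%) were listed by 1 library alone, 30 of them by a MEF and 47 by an ESC library, and 36 (12.9%) had other patterns. Element number went with the length of the window: Meis2 (406 kb) had 49 elements, Meis1 (339 kb) 45, Tbx15 (314 kb) 43, Nr2f2 32, Foxd1 28, Tbx18 21, Nr2f1 20, Foxf1 19, Osr2 14 and Osr1 8. The windows of Osr1, Osr2, Foxf1, Foxd1, Nr2f1 and Nr2f2 are of nearly equal length (202 to 215 kb), so Nr2f2 had 4 times as many elements as Osr1 at a like length.

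**Figure D1:**
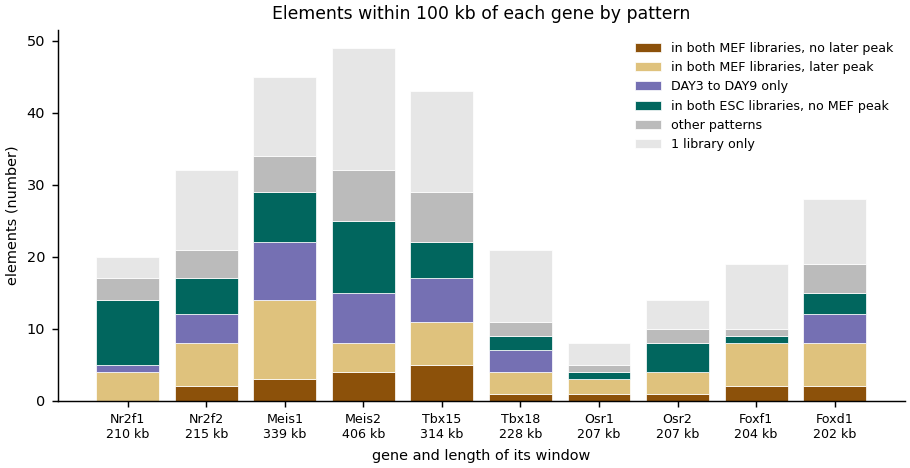
Number of elements within 100 kb of each gene, stacked by the stages at which they were listed; the window length is given under each gene. Meis1, Meis2 and Tbx15, with the longest windows, hold 21 of the 33 transient elements, and Nr2f1 is the gene with no fibroblast element that lacks later peaks.

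Of the 72 fibroblast elements, 25 (34.7%) had no peak in either DAY3 library, where 47.1% of all 46089 fibroblast regions had none. An element is called lost or closed where no peak was listed, which carries no p-value, since 2 libraries against 2 cannot go below 0.333. In these bulk samples, fewer cells with an open element and less access per cell cannot be told apart. No later library at all listed 21 (29.2%, against 37.7% of all). Last listing fell at DAY3 for 1 element (1.39%, against 4.32%), at DAY6 for 3 (4.17%, against 3.23%) and at DAY9 for 4 (5.56%, against 5.23%). At least 1 ESC library listed 43 (59.7%, against 49.5%), both listed 37 (51.4%, against 41.7%), and 30 were listed by all 10 libraries (41.7%, against 33.3%). In all, 8 (11.1%) had their last peak between DAY3 and DAY9, close to the 12.8% of all fibroblast regions. The 21 without a later peak had a median fold of 4.76 and 3.78 in the MEF libraries, against 6.88 and 4.06 for the 30. The listing limit at background was 3.01 and 3.03 at DAY3, and whether weak elements were missed for that reason was not tested. With every list cut to 45497 peaks, 21.7% of 46 elements had no DAY3 peak, against 37.3% of all fibroblast regions. The share depended on the width of the window: of the 31 fibroblast elements from 100 to 200 kb, 25 (80.6%) had no DAY3 peak, and within 200 kb the share was 48.5%, against 47.1% of all. Without MEF replicate 2, the deepest MEF library, 111 elements had a peak in MEF replicate 1 and 49.5% of these had none at DAY3, against 59.2% of all. At the edge of the window, from 90 to 100 kb, 3 of 6 fibroblast elements had no DAY3 peak, and just outside it, from 100 to 110 kb, 2 of 3.

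The elements were then divided by place. Within 1 kb of a gene end, of any protein-coding gene, 17 of 19 fibroblast elements still had a DAY3 peak in at least 1 library (89.5%, against 92.0% of all such regions). Away from gene ends 30 of 53 had one (56.6%, against 39.4%). With windows of 200 kb, 58.5% of 82 elements away from gene ends had no DAY3 peak, against 60.6% of all, and with lists of equal length 30.0% of 30, against 53.1%. Both ESC libraries listed 18 of the 19 elements near gene ends (94.7%, against 89.2%) and 19 of the 53 away from them (35.8%, against 25.3%). Another protein-coding gene held, or lay within 1 kb of, 15 of the 72 elements. Of these 15, 5 had no DAY3 peak (33.3%), close to the 20 of the other 57 elements (35.1%).

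**Figure D2:**
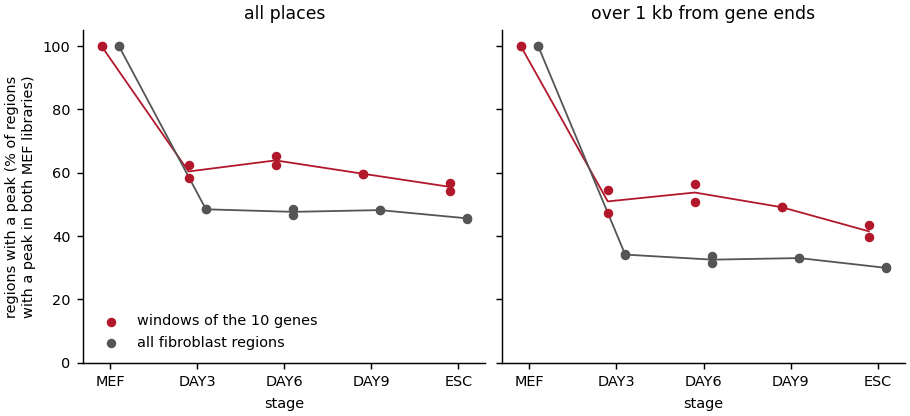
Percent of fibroblast regions with a peak in each library (points) and the mean of the stage (lines), for the windows of the 10 genes (72 elements) and for all 46089 regions; the right panel leaves out regions within 1 kb of a gene end. Both MEF libraries are at 100% by definition, the DAY3 points of the 10 genes lie at 58.3% and 62.5%, and those of all regions at 48.5% and 48.4%.

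Whether closing went on after DAY3 was asked from the share of the 72 elements that each library still listed. It was 58.3% and 62.5% in the DAY3 libraries, 62.5% and 65.3% (DAY6), 59.7% in both DAY9 libraries, and 56.9% and 54.2% (ESC). The ESC libraries were lowest, and the DAY6 libraries overlapped those of DAY3. Over all fibroblast regions the share was 48.5% and 48.4% (DAY3), 48.6% and 46.7% (DAY6), 48.2% in both DAY9 libraries, and 45.7% and 45.5% (ESC). There too the ESC libraries were lowest, so a lower share in ESC is not particular to the genes studied. From DAY3 to ESC the mean over the 72 elements changed by -4.86 percentage points. The trend over the order DAY3, DAY6, DAY9, ESC did not pass the threshold of 0.05 (exact Jonckheere-Terpstra permutation test, two-sided p = 0.122, smallest possible p = 0.0111). The MEF libraries set the elements and did not enter, which left 180 arrangements of the samples. The p-values in this paragraph are for that order of stages, not for the size of the change. With every list cut to the same length the change was -22.8 points over 46 elements (exact permutation test, p = 0.0111), and where a peak had to cover 50% of the element it was -11.4 points (exact permutation test, p = 0.0167). Without MEF replicate 2 it was 1.80 points over 111 elements (exact permutation test, p = 0.711). The call thus varied with the treatment of list length, of overlap and of the MEF library that set the elements. Cutting to 45497 peaks left the DAY3 lists (45766 and 45497 peaks) nearly whole. The ESC lists (86585 and 88980 peaks) were shortened far more, so a lower ESC share can come from the cut itself. No value for all fibroblast regions under this cut stands beside the -22.8 points, which are therefore not read as closing near these genes.

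Nr2f2 had the strongest fibroblast element of the 10 genes that was lost. It lies 84.4 kb downstream of the gene, at chr7:70266920-70267550, in no protein-coding gene. The authors' fold there was 22.0 and 17.5 (MEF), 9.36 and 11.8 (DAY3), and 3.37 and 5.71 (DAY6), with no peak in DAY9 or ESC. Each stage with peaks was lower than the one before it, without overlap. The listing limit at each library's commonest background was a fold of 3.37 and 3.61 (DAY6) and 2.64 and 2.63 (DAY9). The limit at the element itself was not tested. A nearer element, 46.9 kb downstream (chr7:70304371-70305000), had a fold of 12.4 and 7.83 (MEF) and 5.87 and 3.83 (DAY3), no peak at DAY6 or DAY9, and 4.02 in ESC replicate 1 alone. On the upstream side, the element 49.8 kb before the start had peaks in MEF alone. Inside the gene, 5.0 kb after the listed start, chr7:70361231-70362322 had peaks in all 10 libraries, from 5.93 in MEF replicate 2 to 11.6 in DAY9 replicate 1. Another 3 downstream fibroblast elements, 0.186, 16.6 and 19.5 kb from the gene, were also listed by all 10 libraries, and a second one inside the gene, 1.7 kb after the start, by MEF alone. The 8 fibroblast elements of Nr2f2 thus comprised 4 listed throughout, 2 listed by MEF alone, and the pair at 84.4 and 46.9 kb with lower folds at DAY3 than in MEF.

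**Figure D3:**
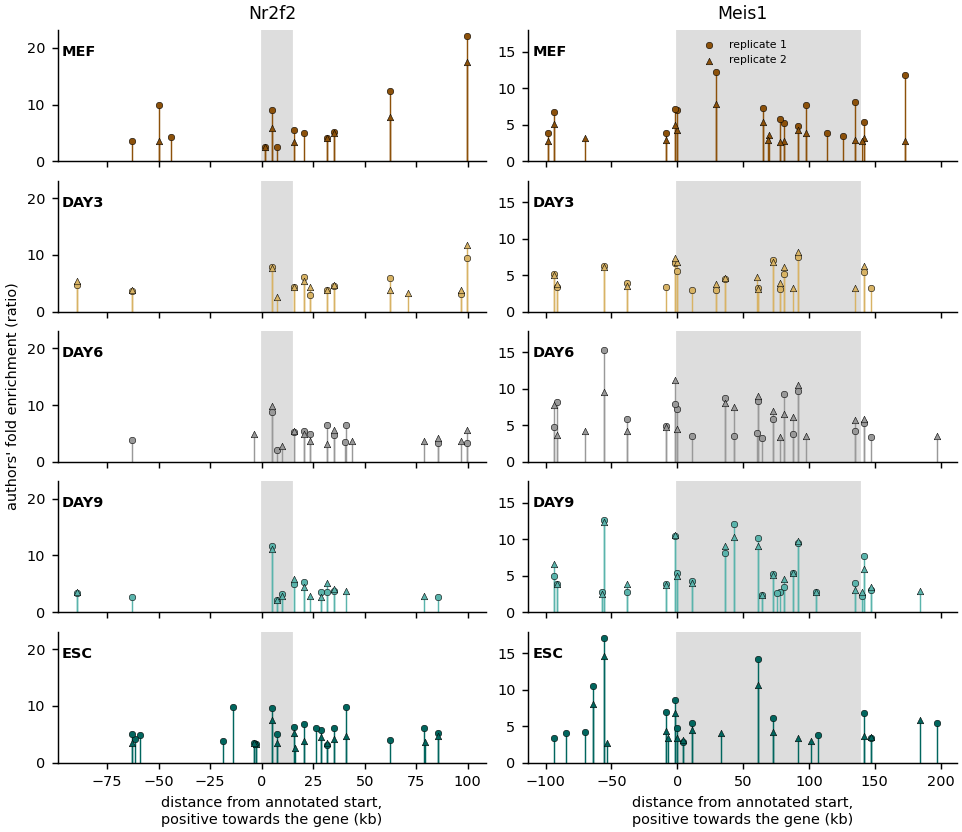
Authors' fold of every element within 100 kb of Nr2f2 and Meis1 by stage, against the distance of its centre from the annotated start, positive in the direction of the gene; grey marks the gene, circles replicate 1 and triangles replicate 2. The element farthest downstream of Nr2f2 falls from 22.0 in MEF replicate 1 to 3.37 in DAY6 replicate 1 and is then not listed, and near Meis1 an element 55.3 kb before the start is listed by all libraries from DAY3 on.

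Nr2f1, the paralogue of Nr2f2, kept all 4 of its fibroblast elements in all 10 libraries. The strongest, 24.9 kb downstream and inside Fam172a (chr13:78162853-78164119), had a fold of 10.0 and 9.29 (MEF) and of 14.8 and 14.3 (ESC). The one at the outer start was weak in every library, from 2.29 to 3.38. Nr2f1 also had 9 elements of ESC without a MEF peak, 8 of them first listed by both libraries in ESC itself. The strongest of the 9 (chr13:78179191-78180194, 8.78 kb downstream) was the exception, with 5.61 and 3.69 (DAY6), 3.84 and 2.75 (DAY9), and 5.58 and 8.33 (ESC).

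Among the 14 fibroblast elements of Meis1, 4 had no DAY3 peak and 3 were in all 10 libraries. The strongest, inside the gene 29.8 kb after the start (chr11:18988692-18989721), had a fold of 12.2 and 7.83 (MEF) and 3.01 and 3.83 (DAY3), and no later peak. Elements at chr11:18845385-18845979 (34.4 kb downstream) and chr11:18953770-18954282 (inside the gene) were listed by MEF alone, at 11.8 and 2.79 and at 7.34 and 5.40. Meis1 had 3 of the 4 elements last listed at DAY9. The elements over and just before its start were present in all 10 libraries, at 3.30 to 7.28 and 5.01 to 11.2. In contrast, an element 54.3 kb upstream of the gene (chr11:19073930-19074694) had no MEF peak, and its fold was 6.19 and 6.06 (DAY3), 15.3 and 9.57 (DAY6), 12.7 and 12.4 (DAY9), and 17.1 and 14.6 (ESC). The ESC values were above those of DAY9, DAY6 overlapped both, and those of DAY3 were lowest.

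Meis2 lost 4 of 8 fibroblast elements by DAY3, and all 4 had no later peak. Its strongest element, 80.1 kb downstream (chr2:115780311-115781156), closed late, with a fold of 12.0 and 9.05 (MEF), 8.09 and 10.0 (DAY3), 8.33 and 9.25 (DAY6), 5.16 and 4.42 (DAY9), and no ESC peak. MEF, DAY3 and DAY6 overlapped, and DAY9 was below them. An element 11.2 kb upstream (chr2:116078782-116079254) was listed by MEF alone, at 6.27 and 4.18. Meis2 also had 10 elements of ESC without a MEF peak. The strongest, inside the gene at chr2:115872761-115873373, had no DAY3 peak and a fold of 4.86 and 6.44 (DAY6), 9.24 and 8.72 (DAY9), and 15.4 and 7.88 (ESC).

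Tbx15 had the most fibroblast elements with no DAY3 peak, 6 of 11, and 5 of these had no later peak. Over all fibroblast regions 47.1% had no DAY3 peak, and the count is not read as a trait of Tbx15. Its strand is not in the annotation used, so sides are given by coordinate. Of the 6, those 91.8, 56.4 and 51.8 kb below the lower end lay inside the neighbour Wars2. The strongest lost element lay 18.2 kb beyond the higher end (chr3:99372419-99373191), with a fold of 5.66 and 9.85 (MEF) and no other peak. The 2 strongest fibroblast elements near Tbx15 also lay inside Wars2 and were listed by all libraries: chr3:99199032-99199569 at 27.7 to 32.6 and chr3:99140770-99141873 at 8.69 to 14.8. The element at the lower end of Tbx15 had a peak in MEF replicate 1 (4.56), none in MEF replicate 2 or DAY3, and peaks in every later library (3.13 to 5.58). Tbx18 had 4 fibroblast elements. The one over its start (chr9:87729378-87731702) was listed by every library, at 6.81 to 10.2. That 84.0 kb downstream (chr9:87617937-87618808) had 11.3 and 3.22 (MEF) and was listed by 1 library each of DAY3, DAY6 and ESC (3.99, 5.39 and 3.57), and that 57.4 kb downstream by MEF alone.

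Osr1 had 3 fibroblast elements. The one 7.96 kb beyond the higher end (chr12:9589456-9590128) was listed by MEF alone, at 7.43 and 3.78, and the one 3.05 kb beyond that end by all libraries, at 4.13 to 11.7. The element at its lower end was missing from DAY9 replicate 1 alone. Osr2 lost 1 of 4 by DAY3. Its element at the lower end (chr15:35295698-35296846) was listed by all libraries, at 2.57 (MEF replicate 2) to 13.2 (ESC replicate 1). All 4 of its ESC elements without a MEF peak were listed by both libraries of no earlier stage, as was the single one of Osr1 (chr12:9626460-9627584, 7.81 and 8.67 (ESC)).

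Foxf1 had the only fibroblast element at a gene's own start with no DAY3 peak. At its lower end (chr8:121083460-121084754) the fold was 6.09 and 2.63 (MEF), then 5.39 and 5.44 (DAY6), 3.92 and 4.67 (DAY9), and 4.83 and 4.85 (ESC). The gap at DAY3 falls in the shortest lists, where the listing limit at background was a fold of 3.01 and 3.03. The element 99.3 kb beyond the higher end (chr8:121187450-121188112) was listed by MEF alone, at 7.25 and 4.12, and 4 of its 8 fibroblast elements were in all libraries. Of these 4, the one 19.5 kb away lies in Mthfsd and the one 27.7 kb away in Foxc2. Foxd1 lost 3 of 8 by DAY3. The strongest of these, 78.1 kb upstream and within 1 kb of Ankra2 (chr13:98275565-98276158), had 11.6 and 5.69 (MEF) and no other peak. The elements 90.6 kb upstream, in Utp15 and Ankra2, and 36.8 kb upstream, in Btf3, were listed by all libraries, as was the one at its own start (3.11 to 6.76). Foxf1 and Foxd1 each had 6 of 8 fibroblast elements in both ESC libraries, and 1 of the 6 of each had no DAY3 peak.

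**Figure D4:**
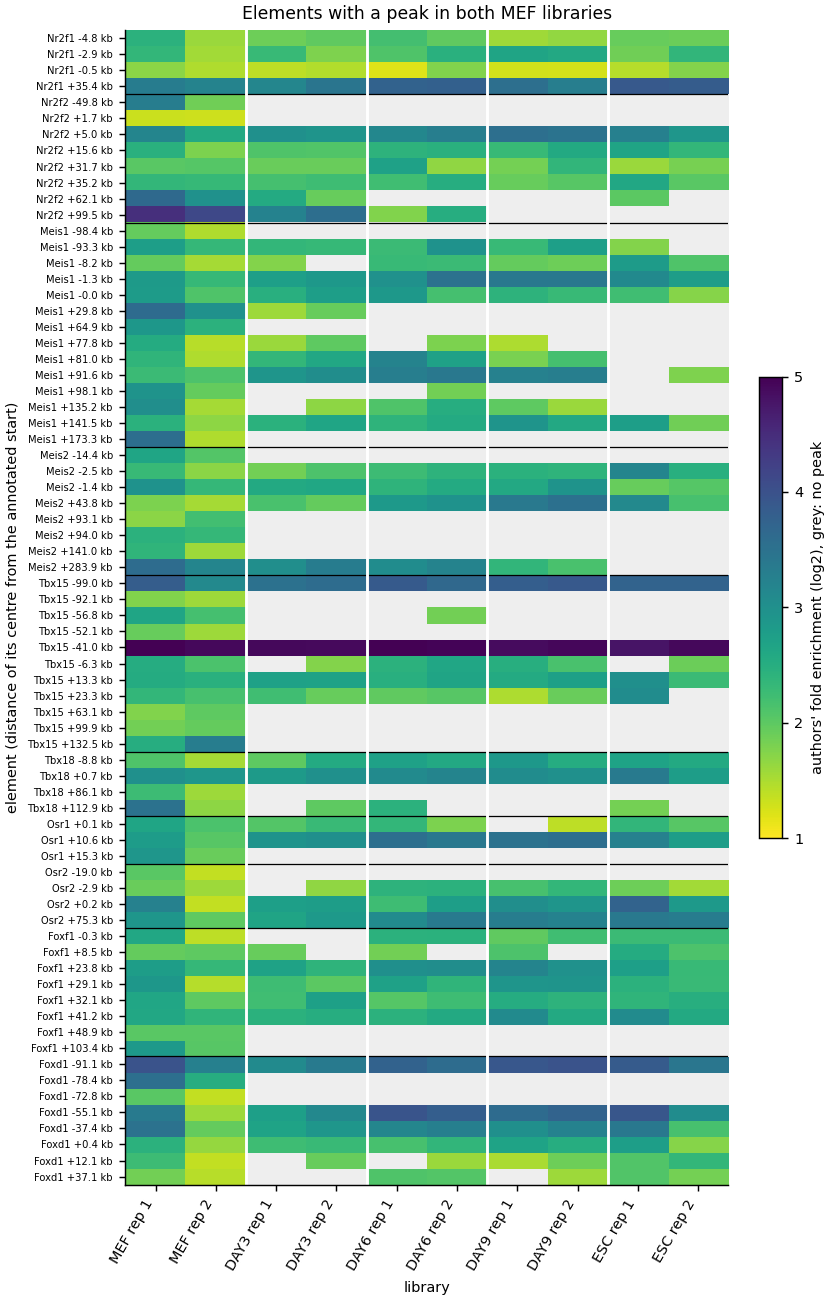
Authors' fold (log2 colour scale, grey for no peak) of the 72 fibroblast elements in each library, ordered by gene and by the distance of the element's centre from the annotated start, or from the lower gene end where no strand is given. Rows grey after MEF are the 21 elements with no later peak, and the 30 rows coloured throughout are those in all 10 libraries.

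Absence at DAY3 was not always lasting, near these genes or elsewhere. Of all fibroblast regions, 21717 had no DAY3 peak, and fewer, 17371, had no peak in any library after MEF. Of the 25 elements without a DAY3 peak, 4 were listed again later: that at the start of Foxf1, one 37.1 kb after the start of Foxd1, and one each near Meis1 and Tbx15, the last 2 by DAY6 replicate 2 alone. Both of the last 2 had a fold of 3.61 there, equal to the listing limit at background of that library. These 4 elements were named after their values were seen, and their number is not read as a trait of the genes.

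Transient elements made up 11.8% of the elements of the 10 genes, against 9.61% of all regions. Of the 33, 17 lay inside one of the genes and 0 within 1 kb of a gene end. No share over all transient regions stands beside these counts, so they are not read as a trait of the 10 genes. The 3 longest genes, Meis1 (139 kb), Meis2 (206 kb) and Tbx15 (114 kb), held 21 of the 33 in their windows. Meis1 had 8, Meis2 7, Tbx15 6, Nr2f2 and Foxd1 4 each, Tbx18 3 and Nr2f1 1, and none lay near Osr1, Osr2 or Foxf1. Both DAY3 libraries listed 16 (48.5%, against 34.9% of all transient regions), both DAY6 libraries 17 (51.5%, against 44.0%) and both DAY9 libraries 27 (81.8%, against 80.2%). The DAY9 share was thus near that of all transient regions, and the DAY9 lists were longer than those of DAY3 and DAY6. All 6 libraries of these stages listed 9 (27.3%, against 17.5% of all transient regions). Among these 9 was an element 88.8 kb beyond the higher end of Tbx15 (chr3:99443093-99444112), at 7.60 and 8.16 (DAY3), 13.4 and 12.8 (DAY6), and 13.6 and 13.5 (DAY9). A like course was seen 77.9 kb downstream of Nr2f1, inside Fam172a (chr13:78110246-78111056), at 4.28 and 4.31, then 13.8 and 12.0, then 10.8 and 12.1. At both, DAY3 was lowest and the DAY6 and DAY9 values lay close together. Inside Meis2 (chr2:115957467-115958206) the fold was 5.55 and 3.67 (DAY3), 9.23 and 9.24 (DAY6), and 6.96 and 4.78 (DAY9). Inside Meis1 (chr11:18975769-18976597) peaks began at DAY6 (3.59 and 7.51) and reached 12.1 and 10.3 (DAY9). The strongest near Nr2f2 (chr7:70455862-70456563, 89.1 kb upstream) had peaks at DAY3 (4.60 and 5.42) and DAY9 (3.36 and 3.58) and none at DAY6, where the listing limit at background was 3.37 and 3.61.

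**Figure D5:**
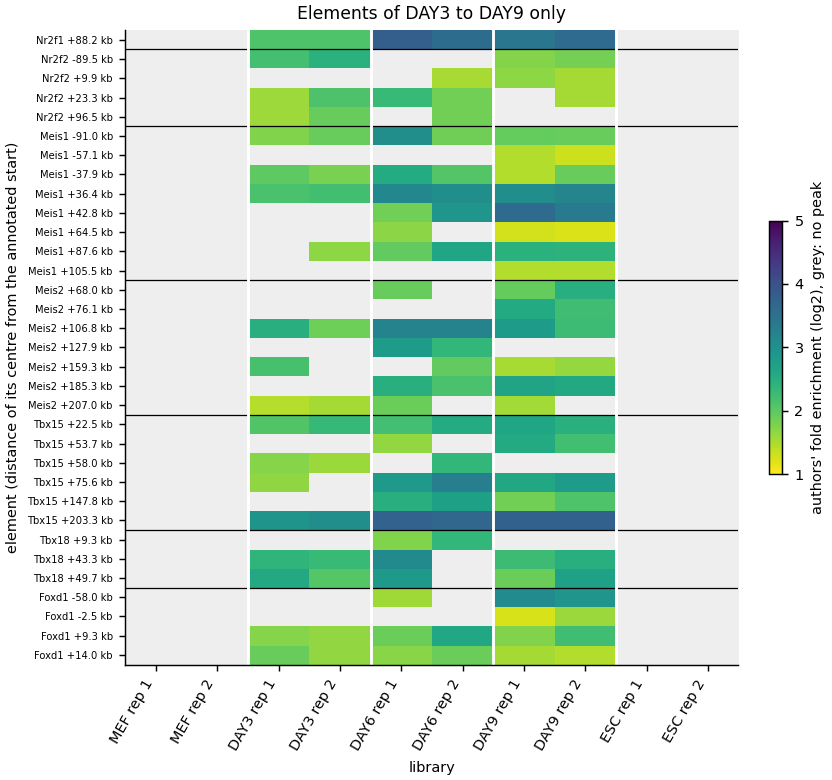
Authors' fold (log2 colour scale, grey for no peak) of the 33 transient elements in each library, ordered as for the fibroblast elements. The MEF and ESC columns are empty by definition, and both DAY9 libraries are filled for 27 of the elements (81.8%, against 80.2% of all transient regions).

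Of the 95 elements with peaks in both ESC libraries, 47 (49.5%, against 56.6% of all ESC regions) had no MEF peak. Both libraries first listed 5 of these at DAY3 (10.6%, against 8.69%), 9 at DAY6 (19.1%, against 14.7%), 5 at DAY9 (10.6%, against 15.7%) and 28 not before ESC (59.6%, against 60.9%), although a single library of an earlier stage may list some of the 28. All 5 of DAY3 lay near Meis1 (3) or Meis2 (2). Near Foxd1, 2 of 3 were first listed at DAY6, the strongest inside Gm21976 (chr13:98306204-98307272), at 8.01 and 4.51 (DAY6) and 8.53 and 6.39 (ESC). The strongest near Tbx15 (chr3:99364029-99364931, 4.91 and 10.1) and Tbx18 (chr9:87670754-87672024, 8.70 and 6.93) had peaks in ESC alone. That of Foxf1 (chr8:121173989-121174738) had 2.64 in DAY9 replicate 1 and 10.9 and 3.25 (ESC).

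The windows of the 10 genes held 1.52 and 1.32 of every 1000 listed peaks in MEF, 1.70 and 1.93 (DAY3), 1.81 and 1.75 (DAY6), 1.50 and 1.49 (DAY9), and 1.56 and 1.43 (ESC). DAY3 and DAY6 were higher than the other stages, with no overlap. Stage accounted for 87.4% of the variation of the 8 samples (as sums of squares), which did not pass the threshold (exact permutation test, p = 0.102). They passed with the stronger 50% of each list (98.2%, exact permutation test, p = 0.0190), with windows of 50 kb (91.7%, exact permutation test, p = 0.0476) and without elements at other genes (92.4%, exact permutation test, p = 0.0405). No trend along the stages was detected (0.0732 more per 1000 in ESC than in MEF, exact Jonckheere-Terpstra permutation test, two-sided p = 0.807).

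Lists of other factors give the setting, as counts without a test. Around 24 other mesodermal and mesenchymal factors, 83 of 178 fibroblast elements (46.6%) had no DAY3 peak and 42.7% were in both ESC libraries. This list is not separate from the 10 genes, since Foxc2 lies in the Foxf1 window. The 9 fibroblast elements counted for Foxc2 take in the 8 of Foxf1. Around 10 naive pluripotency factors the shares were 42.5% and 50.0% of 40, and around 10 factors of other lineages 34.3% and 54.3% of 35. The 10 genes studied, at 34.7% and 51.4% of 72, lay closest to the factors of other lineages in the first share and to the pluripotency factors in the second. Transient elements made up 9.49%, 6.49% and 7.66% of the elements of these lists, against 11.8% here. The share of listed peaks near the pluripotency factors went from 0.954 and 0.902 per 1000 in MEF to 2.83 and 2.32 (ESC), a course that the 10 genes did not share.

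By the same count of peaks per 1000 over the 10 libraries, the protein-coding genes with the course most like that of the 10 genes together were Selenof (Spearman rho 0.976), Elk1, Uxt and Stag2 (0.952 each) and Cfp (0.939), of 19697 genes with at least 20 peaks. Elk1, Uxt and Cfp are neighbours whose windows share peaks, and all these values share the lists' lengths, so the likeness is a description.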

How the data were processed

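The authors deposited 1 peak list per library, each of 10 columns without a header. Per the submitters' processing notes, Bowtie2 2.3.2, MACS2 2.1.1, deepTools 2.3.6 and mm10 were used. Filters, the handling of duplicate reads and the shift of Tn5 cuts are not given in the sources used here. The fold enrichment (a linear ratio of summit to local background), the −log10 p-value and q-value and the score (10 times the −log10 p-value) are the authors' own, as deposited. No listed −log10 p-value was under 5, and 58.2% to 75.9% of the peak numbers remained in each list, by a rule not given in the sources used here. Folds were used to describe and rank elements, and their depth differs between lists, so a comparison of folds between libraries is descriptive.

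Lists were merged with Python 3.11.15 (numpy 2.4.6, pandas 2.3.3, scipy 1.17.1). Gene positions are those of RefSeq GRCm38.p6. Strand was taken from the promoter table for 6 of the 10 genes. For Tbx15, Osr1, Osr2 and Foxf1 both gene ends served as starts, and distances are from the lower end. Distances of elements upstream or downstream are to the nearest gene end. Whether elements are exonic, intronic or in a UTR was not analysed here. Pileups were recovered from fold and −log10 p (tolerance 0.01) and compared at pileups of 100 to 200. Tests were exact permutations of samples over stages. Each p-value is the share of arrangements at least as extreme as the observed one, and differences between these libraries may be technical. The steps were tested on simulated lists with planted losses.

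The members, gene lists, markers and motifs were chosen with earlier results of these data known. Elements named were taken from those within 1 kb of a start, the 3 strongest fibroblast elements by mean MEF fold, the strongest ESC element without a MEF peak and the strongest transient element of each gene, the Nr2f2 element named earlier, and the elements said to be named after their values were seen. Not every element that met this rule is named, for example some near Nr2f1, Osr1, Osr2 and Foxf1. The Nr2f2 elements beyond that rule and the Foxf1 element in Foxc2 were also named after their values were seen. So were the Tbx15 elements in Wars2 without a DAY3 peak. The alternatives were lists of equal length, the stronger 50%, windows of 50 and 200 kb, no elements at other genes, a coverage of 50%, windows of 500 bp around peak centres (the lists give no summit), all libraries counted separately, a replicate block, and leaving out each library.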

Additional observations from a re-analysis of the deposited data

How the results depend on the processing

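Over all alternatives 117 values stayed the same in direction and call or in size, 13 moved, 5 newly passed the threshold and 3 reversed. The causes were not tested, beyond that shorter lists, narrower windows and fewer libraries change the number of elements. With lists of equal length, the change in the share of fibroblast elements listed from DAY3 to ESC was -22.8 points, elements closed by DAY3 were 21.7%, and ESC elements without a MEF peak numbered 22, against 47. That cut took more peaks from the ESC lists than from the DAY3 lists. With the stronger 50% of each list the between-stage share of peaks was 98.2%, with 21 such ESC elements and 15 transient ones, against 33. With windows of 50 kb that between-stage share was 91.7%, and without elements at other genes 92.4%. With windows of 200 kb the trend in peaks per 1000 reversed to -0.0631, elements closed by DAY3 were 48.5%, those in both ESC libraries 37.9%, and ESC elements without a MEF peak 75. Where a peak had to cover 50% of an element, the share changed by -11.4 points and 38.6% were in both ESC libraries. Leaving out 1 library at a time, that change ranged from -6.94 to 1.80 points, the trend in peaks per 1000 from -0.0247 to 0.171, and elements closed by DAY3 from 34.7% to 49.5%, where 1.80, -0.0247 and 49.5% came without MEF replicate 2. ESC elements without a MEF peak were 74 and 77 without ESC replicate 1 and 2.

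Replicate numbers gave no sign of a pairing, since the correlation of deviations between libraries that share a number lay between -0.0095 and 0.022. With stages permuted only within each replicate number, the element share changed by -4.86 points (exact permutation test of the stage order, p = 0.128). The between-stage share was 82.6% (exact permutation test, p = 0.0833), and the trend was 0.0732 (exact permutation test, p = 0.673), so the replicate block changed no call. Alternatives for the elements away from gene ends, transient elements and ESC elements were chosen after seeing the data. Depth limits the absence of a peak: DAY6 replicate 2, the shallowest library, needed a fold of 3.61 over background.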
